A study of Mus musculus with 12 samples.

Results

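Atf3, Jun, Junb, Jund, Fos, Fosl2, Egr1 and Ier2 are immediate early genes, most of them encoding AP-1 or related transcription factors, and they were followed here in embryonic mouse brain in which the Hippo pathway had been disturbed at its effector or at its upstream end. They were taken as every probe set that the platform annotation ties to 1 of these 8 symbols alone. This gave 11 probe sets of 45037 in the table, and 8 of the 17097 genes that had a single-gene probe set. No probe set shared between several genes named any of them. Jun, Jund and Fosl2 had 2 probe sets each and the other genes 1. The one with the higher mean over all 12 arrays stood for the gene and is called its first probe set.

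RNA was measured on 12 Affymetrix arrays, 3 in each of 4 groups, in 2 experiments. YAP overexpression embryos carried TetO-YAP1, a doxycycline-inducible allele of the S127A mutant of YAP1, together with Nes-rtTA, a transactivator driven by the neural progenitor promoter of Nestin. YAP controls carried Nes-rtTA alone. Arrays of both groups hold forebrain with midbrain of E11.5, from embryos whose dams had eaten doxycycline food at 200 mg/kg from E7.5. Nf2 knockouts were Nf2F/F;Emx1-Cre, with both floxed copies of Nf2 removed in the telencephalic cells that express Emx1-Cre. Nf2 controls were Nf2F/+;Emx1-Cre, so they too had lost 1 copy in those cells. Their dorsal telencephalon was taken at E13.5. All 4 groups were of mixed genetic background. The labels do not say that the 3 arrays of a group came from separate embryos, so p-values measure the spread between these arrays, which may be technical in part. Each sample was bulk tissue, in which fewer cells of a type and less RNA per cell cannot be told apart.

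Immediate early genes are switched on within minutes of a growth factor, neuronal activity or a stress, without new protein synthesis. Jun and Fos family proteins pair through leucine zippers into the AP-1 complex, which binds TGANTCA. Atf3 belongs to the related ATF/CREB branch, which binds CRE sites and is known as a stress-induced repressor or, paired with Jun, an activator. Egr1 is a zinc finger factor that binds GC-rich sites. AP-1 is known to occupy many enhancers together with YAP, TAZ and the TEAD factors.

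The stretches before the transcription starts are shown for the 3 genes that rose with YAP overexpression. Whether these genes share a regulation was not tested. RefSeq promoters on GRCm38.p6 were matched for 6 of the 8 genes, all but Egr1 and Ier2. Each line gives the 250 bases before the start, with matches to the motifs searched in capitals. They lie at chr1:191183334-191183583 on the minus strand (Atf3), chr4:95052223-95052472 on the minus strand (Jun) and chr5:32136222-32136471 on the plus strand (Fosl2).
Atf3: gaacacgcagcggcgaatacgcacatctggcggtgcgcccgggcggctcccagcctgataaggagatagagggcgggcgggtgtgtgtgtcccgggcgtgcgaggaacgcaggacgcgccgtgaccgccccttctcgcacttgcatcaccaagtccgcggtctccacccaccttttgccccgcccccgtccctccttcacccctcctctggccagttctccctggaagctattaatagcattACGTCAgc
Jun: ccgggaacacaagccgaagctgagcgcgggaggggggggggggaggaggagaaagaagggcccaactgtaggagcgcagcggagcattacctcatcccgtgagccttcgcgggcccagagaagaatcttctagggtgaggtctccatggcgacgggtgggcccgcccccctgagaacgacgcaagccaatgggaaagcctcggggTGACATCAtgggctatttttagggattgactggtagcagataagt
Fosl2: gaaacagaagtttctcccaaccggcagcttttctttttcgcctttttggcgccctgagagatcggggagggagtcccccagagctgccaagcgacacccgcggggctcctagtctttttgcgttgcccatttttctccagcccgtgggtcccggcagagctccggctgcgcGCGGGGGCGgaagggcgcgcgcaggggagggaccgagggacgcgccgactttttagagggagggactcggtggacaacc

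Motifs were searched on both strands in windows from 250 bases before to 50 bases after the start. The CRE core TGACGT was found in Atf3, where its reverse complement begins 8 bases before the start, and in Fos, against 7.51% of all 32851 promoters. The CRE-like site TGACNTCA was found in Jun alone of the 6, beginning 45 bases before the start, against 8.83% of all promoters. The EGR site GCGNGGGCG was found in Fosl2 alone, beginning 79 bases before the start, against 5.55%. The AP-1 site TGANTCA (7.81% of all promoters), the TEAD site GGAATG (14.7%) and the CArG box bound by SRF (1.63%) were in none of these 6 windows. A match describes letters only and is not evidence that a factor binds there.

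The genes that were manipulated gave a partial check of the labels. Yap1 averaged 11.30 (SD 0.06, n = 3) on the log2 scale in YAP overexpression arrays and 11.04 (SD 0.04, n = 3) in YAP controls, fully separated but not called (adjusted p = 0.0551 by limma), and whether its probe set detects the transgene was not analysed. Nf2 averaged 8.15 (SD 0.11, n = 3) in Nf2 knockouts and 8.53 (SD 0.13, n = 3) in Nf2 controls, also separated and not called (adjusted p = 0.246 by limma). Where its probe set lies relative to the floxed part was not analysed. The 5 midbrain markers measured summed to linear intensities of 3614 to 3969 with YAP overexpression, against 3471 to 3925 in YAP controls. Such sums weigh bright genes most. The differences of these 5 ran from -0.72 to 0.07 on the log2 scale. Of the 5, 1 was called lower (20.0%), against 3.64% of all genes. The 6 dorsal telencephalon markers summed to 8545 to 9216 in Nf2 knockouts, against 8757 to 9020 in Nf2 controls.

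The first comparison addressed the response of the E11.5 brain to active YAP. Atf3, Fosl2 and Jun rose, and the other 5 genes did not pass the test. Atf3 rose 2.83-fold, Fosl2 2.56-fold on 1 of its 2 probe sets, and Jun 1.34-fold. A gene was called at a limma p under 0.05 after Benjamini-Hochberg adjustment over all 17097 genes. Thus 3 of 8 members were called higher and none lower, against 2.67% of all genes called higher, 3.64% called lower and 6.31% called in either direction. The median log2 difference of the 8 was 0.30, against -0.01 over all genes, with 7 positive and 1 negative. The 8 genes were chosen with earlier results of these data known, so these shares are a description.

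**Figure D1:**
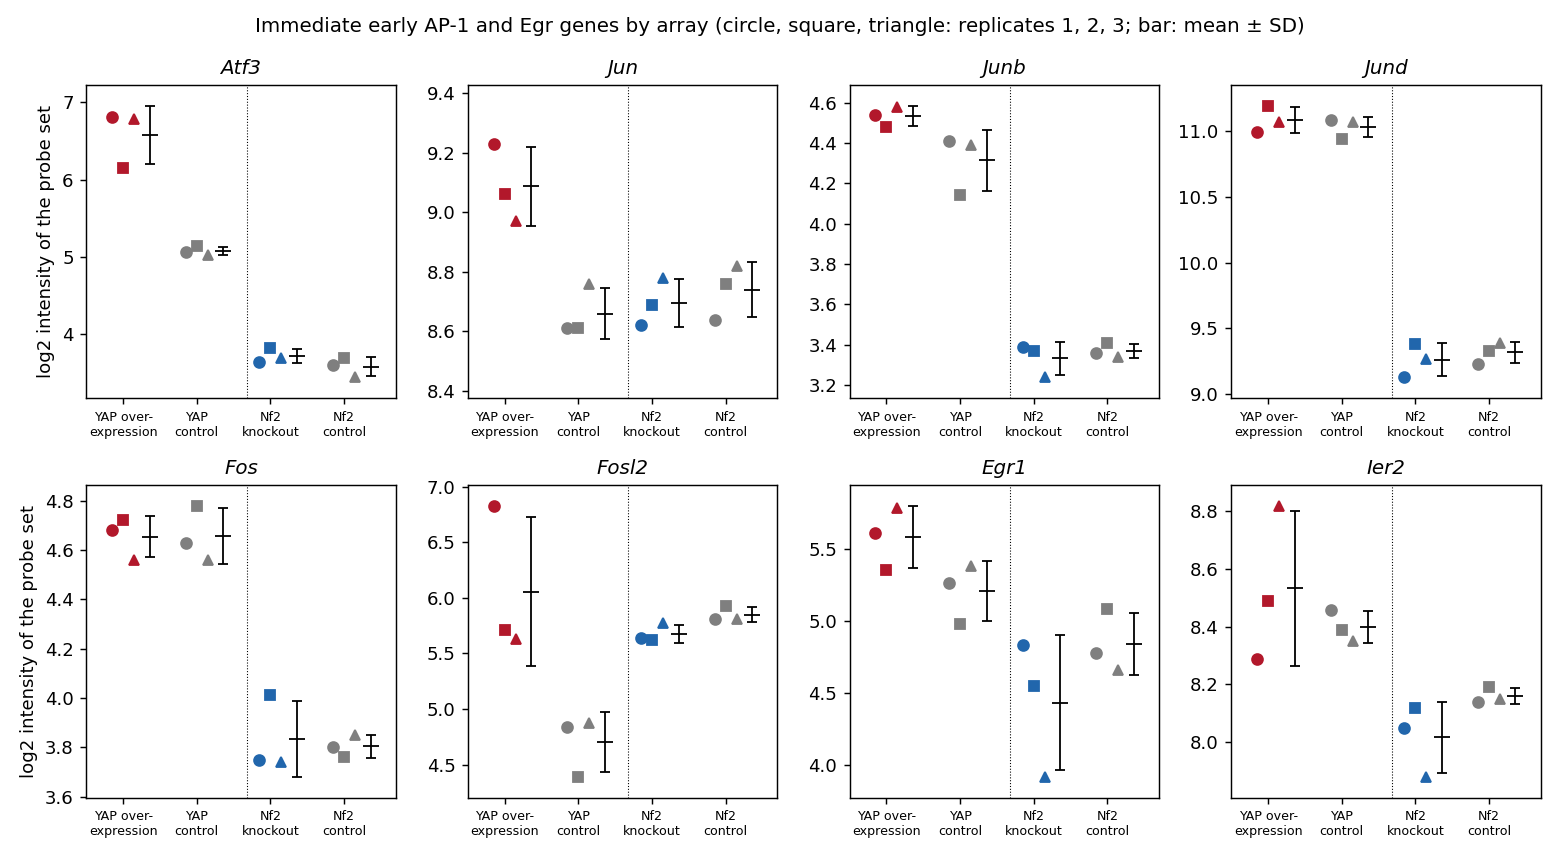
Log2 intensity of the brightest probe set of each gene on all 12 arrays, as circles, squares and triangles for replicates 1, 2 and 3, with mean and SD (n = 3) beside each group; the dotted line separates the experiments, whose levels are not on one scale, and each panel has its own axis. Atf3, Fosl2, Jun and Junb show no overlap between YAP overexpression and YAP control arrays, while Fos, Jund, Egr1 and Ier2 do overlap.

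Atf3 had log2 intensities of 6.81, 6.15 and 6.78 in YAP overexpression arrays, against 5.07, 5.14 and 5.03 in YAP controls. All overexpression arrays lay above all controls by a gap far wider than the spread of the controls, and replicate 2 was the lowest of the overexpression arrays. The means were 6.58 (SD 0.37, n = 3) with overexpression and 5.08 (SD 0.06, n = 3) in controls. The log2 difference was 1.50 (SE 0.15), with a 95% interval of 1.18 to 1.82 and an adjusted p of 0.000125 by limma. It was the 16th largest rise among all genes. The call was kept with any 1 array left out, with differences of 1.39 to 1.72 and adjusted p of 4.98e-06 to 0.00118.

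Fosl2 encodes Fra-2, a Fos family partner of Jun proteins in AP-1. Its first probe set read 6.83, 5.71 and 5.63 with YAP overexpression, against 4.84, 4.39 and 4.87 in YAP controls. The groups did not overlap, and overexpression replicate 1 stood more than 1 log2 unit above the other overexpression arrays. The means were 6.06 (SD 0.67, n = 3) and 4.70 (SD 0.27, n = 3). The difference of 1.36 (SE 0.25, 95% interval 0.81 to 1.90) had an adjusted p of 0.00757 by limma. Without overexpression replicate 1 it was 0.97 and still called (adjusted p = 0.00286).

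The second Fosl2 probe set did not show this rise, and it was not the dimmer one in the YAP controls. There it averaged 5.23, against 4.70 for the first, and lay at the 51.8th percentile of the probe sets of an array, against the 39.9th. The order was the other way in the Nf2 controls, at the 30.3rd against the 63.7th percentile. The second probe set read 5.03, 5.38 and 5.04 with overexpression, against 5.19, 5.04 and 5.45 in controls, a difference of -0.08 (SE 0.13), and the groups overlapped. In the fit of all 45037 probe sets its 95% interval, -0.35 to 0.20, did not reach that of the first probe set, 0.82 to 1.89. The mean of both probe sets differed by 0.64 and was called (adjusted p = 0.0185 by limma). Which transcripts each probe set matches was not analysed here. With only the 6 arrays of the experiment in the fit, Fosl2 was not called (adjusted p = 0.0682).

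Jun encodes c-Jun, the best known partner of Fos and of Atf3. Its first probe set read 9.23, 9.06 and 8.97 with YAP overexpression, against 8.61, 8.61 and 8.76 in YAP controls. Its second probe set read 8.45, 8.52 and 8.54 with overexpression, against 7.98, 7.81 and 8.10 in controls. On both probe sets every overexpression array was above every control. The differences were 0.43 (SE 0.09) and 0.54 (SE 0.11), and both were called over all probe sets (adjusted p = 0.0208 and 0.0187 by limma), where 3.78% of probe sets were called.

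Over genes the adjusted p of Jun was 0.013. Jun was just outside the threshold without control replicate 1 (adjusted p = 0.0503) and with only the 6 arrays of the experiment (adjusted p = 0.0712). On first probe sets, in the fit of all arrays, Jun was a smaller change than Atf3 and Fosl2, and closer to the threshold. With the mean of both probe sets, Jun differed by 0.48 (adjusted p = 0.0017 by limma) and Fosl2 by 0.64 (adjusted p = 0.0185). Fosl2 was then closer to the threshold than Jun. With only the 6 arrays of the experiment Fosl2 was also just outside it (adjusted p = 0.0682).

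Of the remaining Jun family genes, Junb read 4.54, 4.48 and 4.58 with YAP overexpression, against 4.41, 4.14 and 4.39 in controls. The arrays did not overlap, but the difference of 0.22 (SE 0.08) was not called (adjusted p = 0.153 by limma). Jund, whose protein is known to be present in unstimulated cells, read 10.99, 11.19 and 11.07 with overexpression, against 11.08, 10.94 and 11.07 in controls. Its groups overlapped, with a difference of 0.05 (95% interval -0.13 to 0.24), and its second probe set also differed by 0.05. The estimated rise of Jun, 0.43, is outside that interval, but the 95% interval of Jun begins at 0.24, so the intervals meet. Whether these genes differ was not tested.

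Fos, the founding AP-1 gene, read 4.68, 4.72 and 4.56 with YAP overexpression, against 4.63, 4.78 and 4.56 in YAP controls. The groups overlapped fully, and the log2 difference was -0.003 (SE 0.09, 95% interval -0.20 to 0.19). Egr1 read 5.61, 5.35 and 5.78 with overexpression, against 5.26, 4.98 and 5.38 in controls. Its highest control exceeded its lowest overexpression array, and the difference of 0.37 (SE 0.21) was not called (adjusted p = 0.358 by limma). Ier2, a short-lived regulator induced together with these factors, read 8.29, 8.49 and 8.82 with overexpression, against 8.46, 8.39 and 8.35 in controls. Its difference of 0.13 (SE 0.11) was not called (adjusted p = 0.596 by limma). Without overexpression replicate 3 it was -0.01, so its sign rested on that array.

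For 4 of the 8 genes, Atf3, Jun, Junb and Fosl2, overexpression and control arrays were fully separated, as were those of 21.3% of all genes. An unadjusted limma p under 0.05 was also reached by 4 of the 8, and by 19.6% of all genes. The probe sets of Junb and Fos were dim. Junb lay at the 35.6th percentile of the probe sets of an array with overexpression and the 23.0th in controls, and Fos at the 40.2nd and the 39.9th, as means of 3 arrays. The second Jund probe set was as dim, at the 38.3rd and the 35.8th. The first Fosl2 probe set was as dim as Fos in YAP controls, at the 39.9th, and lay at the 60.5th with overexpression. Changes of transcripts near background are compressed on such arrays, so the interval of a dim probe set bounds its signal and not its transcript.

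**Figure D2:**
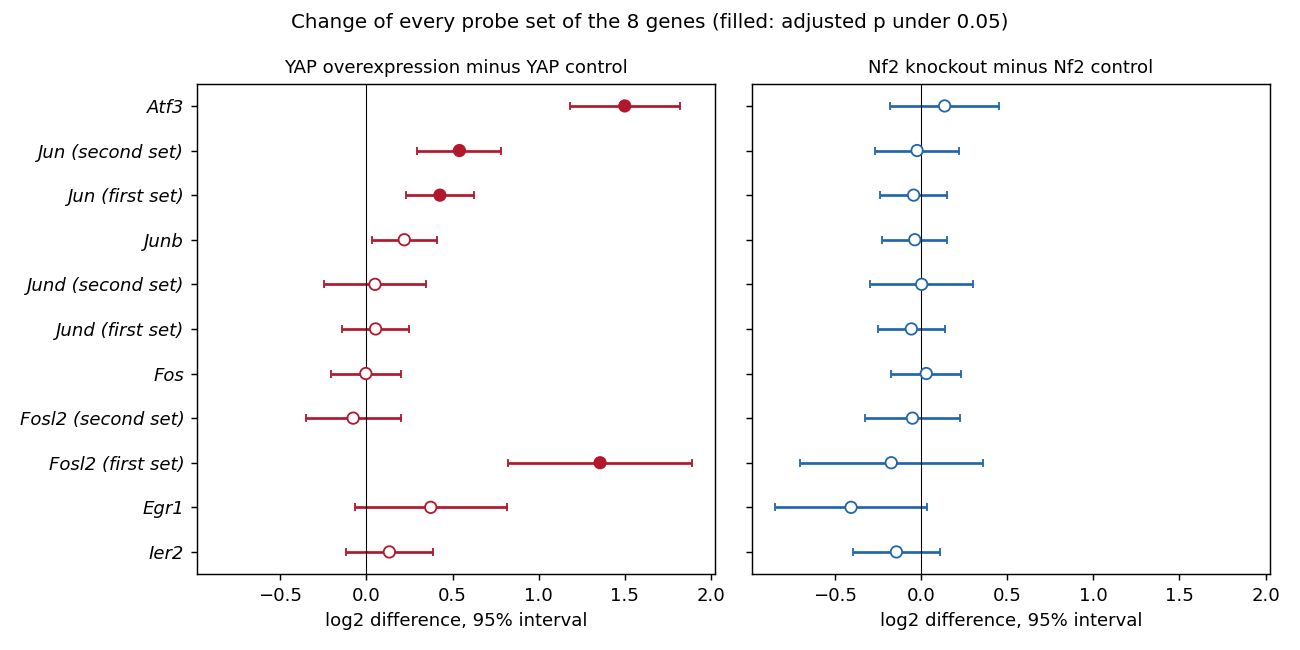
Log2 differences with 95% intervals for all 11 probe sets, YAP overexpression minus YAP control on the left and Nf2 knockout minus Nf2 control on the right, from limma over all 45037 probe sets; filled points passed an adjusted p under 0.05. In the YAP experiment Atf3, both probe sets of Jun and the first one of Fosl2 are filled, and in the Nf2 experiment none is.

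The second comparison asked the same of the dorsal telencephalon after loss of Nf2, which encodes Merlin, an activator of the Hippo kinases. None of the 8 genes was called in Nf2 knockouts by limma, and none had an unadjusted p under 0.05 in the fit of all 12 arrays. Over all genes 0.252% were called, 0.205% higher and 0.0468% lower, and 6.24% had such an unadjusted p. The differences ran from -0.41 to 0.14, with 2 positive and 6 negative, and the median was -0.05 against -0.0033 over all genes. Blocked by replicate number, none was called either, and 21 genes in all were called in place of 43.

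Atf3 read 3.65, 3.82 and 3.69 in Nf2 knockouts, against 3.60, 3.70 and 3.45 in Nf2 controls. The groups overlapped, and the difference of 0.14 (SE 0.15, 95% interval -0.18 to 0.46) was not called (adjusted p = 0.969 by limma). Against the control of the same number the knockouts were higher by 0.05, 0.12 and 0.24, and with the replicate block the adjusted p was 0.938. The whole interval lies below the 1.18 at which that of the YAP experiment begins. Within an array, Atf3 lay at the 39.7th percentile of probe sets in knockouts and the 35.7th in controls, as means of 3 arrays. The controls of the YAP experiment were at the 49.8th. On the Nf2 arrays Atf3 was thus about as dim as Fos was in the YAP experiment. Its interval there bounds its signal and not its transcript.

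Egr1 had the largest difference of the 8. It read 4.83, 4.55 and 3.92 in Nf2 knockouts, against 4.78, 5.08 and 4.66 in Nf2 controls. The groups overlapped, and knockout replicate 3 was the lowest array by a wide margin. The difference of -0.41 (SE 0.21, adjusted p = 0.847 by limma) shrank to -0.15 without that array. When arrays were blocked by replicate number, the unadjusted limma p was 0.0174 and the adjusted p 0.627, and the 3 knockouts differed from the controls of the same number by 0.05, -0.53 and -0.74.

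Knockout replicate 3 was also the lowest of the 6 arrays for Fos, Junb and Ier2, so it held the lowest value of 4 of the 8 genes. Ier2 read 8.05, 8.12 and 7.88 in Nf2 knockouts, against 8.14, 8.19 and 8.15 in Nf2 controls. Fosl2 read 5.64, 5.62 and 5.77 in knockouts, against 5.81, 5.93 and 5.81 in controls. For these genes every knockout array was below every control, but by little. The differences were -0.14 (SE 0.11) for Ier2 and -0.17 (SE 0.25) for Fosl2, neither called (adjusted p = 0.941 and 0.98 by limma). The SE of Fosl2 pools its wider spread in the YAP experiment. With only the 6 Nf2 arrays its unadjusted limma p was 0.0461, and the adjusted p 0.613. Such separation was seen for 2 of the 8 genes and for 12.7% of all genes.

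Ier2 and Fosl2 were also lower in all 3 same-numbered pairs, as was Jun. The other 4 genes differed by little. Jun read 8.62, 8.69 and 8.78 in Nf2 knockouts, against 8.64, 8.76 and 8.82 in Nf2 controls, and its 95% interval of -0.23 to 0.15 lies below the 0.24 at which that of the YAP experiment begins. Jund read 9.13, 9.38 and 9.27 in knockouts, against 9.23, 9.33 and 9.39 in controls. Junb read 3.39, 3.37 and 3.24 in knockouts, against 3.36, 3.41 and 3.34 in controls. In each of these the groups overlapped. Fos read 3.75, 4.01 and 3.74 in knockouts, against 3.80, 3.76 and 3.85 in controls, and also overlapped. The differences were -0.04 for Jun, -0.06 for Jund, -0.04 for Junb and 0.03 for Fos.

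Whether the effects of YAP overexpression and Nf2 loss differ was tested as the difference of both contrasts in the same limma fit. Tissue, age and manipulation change together between the experiments and cannot be told apart in it. The probe set of Atf3 was also dim on the Nf2 arrays, where a change of its transcript may be compressed. Atf3 was called, with an effect larger by 1.36 (SE 0.21, adjusted p = 0.0193) under YAP overexpression, where 0.281% of all genes were called, 0.17% with a larger and 0.111% with a smaller effect of YAP. The call was lost with the replicate block (adjusted p = 0.0761) and without 6 of the 12 arrays taken singly, namely YAP control replicates 1 and 3, Nf2 control replicates 1 and 2 and Nf2 knockout replicates 1 and 3 (adjusted p up to 0.0665), while the difference stayed between 1.25 and 1.58.

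Fosl2 had a difference of effects of 1.53 (SE 0.35) that was not called (adjusted p = 0.124 by limma), though it was without YAP overexpression replicate 1 (1.14, adjusted p = 0.0337). The difference for Jun was 0.47 (SE 0.12, adjusted p = 0.173). That for Egr1 was 0.78 (SE 0.29, adjusted p = 0.373), from differences of 0.37 with YAP overexpression and -0.41 with Nf2 loss. None of the 7 genes other than Atf3 was called in this contrast with all 12 arrays, while 5 of the 8 had an unadjusted p under 0.05, against 10.1% of all genes.

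**Figure D3:**
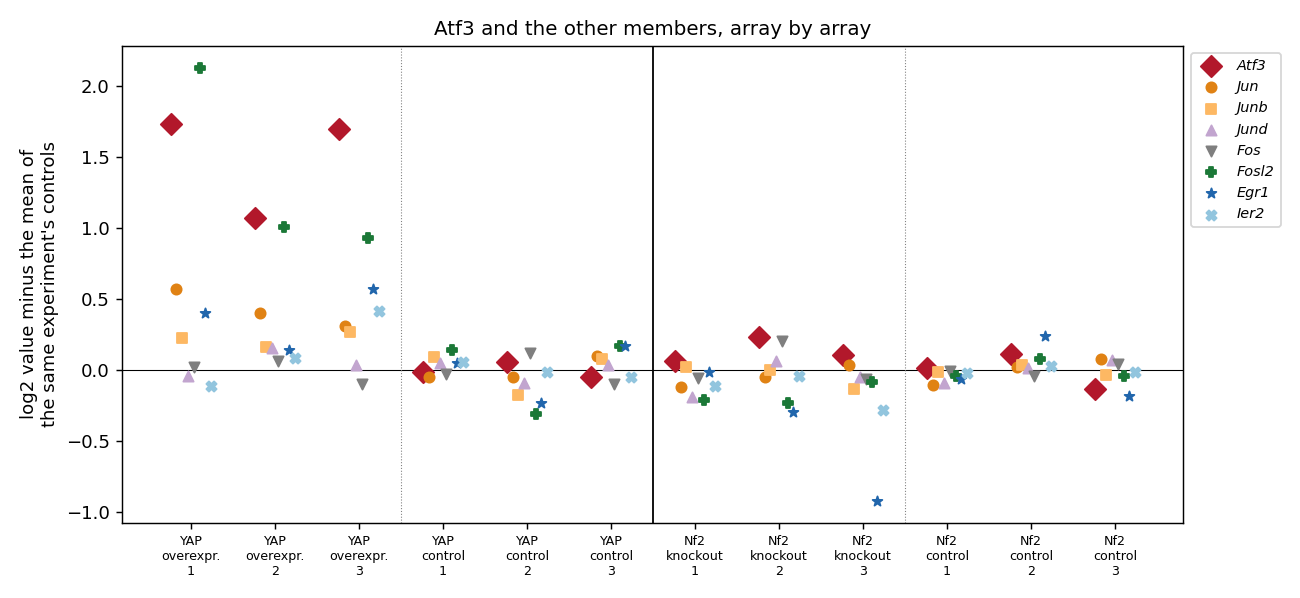
Log2 value of each gene on each array minus the mean of the 3 control arrays of the same experiment; diamonds are Atf3, and the solid line separates the experiments. In the 3 YAP overexpression arrays Atf3 lies at 1.73, 1.07 and 1.70 and only Fosl2 comes near or above it, whereas in Nf2 knockouts all genes but Egr1 on replicate 3 stay within 0.3 of the controls.

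Atf3 was set against the other 7 genes array by array, as its distance from the mean of the controls less the median distance of the others. This is a description, since differences between genes were not tested. In YAP overexpression arrays Atf3 was above the median of the others by 1.50, 0.91 and 1.39, against -0.06, 0.15 and -0.13 in YAP controls. In Nf2 knockouts the values were 0.18, 0.28 and 0.19, against 0.06, 0.09 and -0.12 in Nf2 controls. In both experiments the groups did not overlap, but by a wide gap in the YAP experiment and a narrow one in the Nf2 experiment.

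The median distance of the other 7 genes, of which Fosl2 and Jun were called, was 0.23, 0.16 and 0.31 on the YAP overexpression arrays, against 0.05, -0.09 and 0.08 in YAP controls. Among the overexpression arrays, Fosl2 exceeded Atf3 on replicate 1 and was below it on replicates 2 and 3. Among the other 6, the highest upper bound of a 95% interval was that of Egr1, 0.82, below the lower bound of Atf3. Atf3 and Fosl2 also varied more within groups than most genes, with residual SDs of 0.20 and 0.37 against a median of 0.13 over all genes, and Egr1 likewise with 0.30.

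The genes whose pattern was most like that of Atf3 were found as the smallest root mean square distance over the 12 arrays, after centring each experiment on its control mean. They were Large2, a glycosyltransferase gene (0.18), Rgs9bp (0.21), Adamts3 and Adamts1, which encode secreted metalloproteases (0.22 and 0.23), and the folate receptor gene Folr1 (0.24), where the median over all genes was 0.78. All 5 were higher with YAP overexpression, by 1.22 to 1.50 on the log2 scale, and differed by -0.06 to 0.23 in Nf2 knockouts. Since they were chosen for this pattern, these values are a description. Among the overexpression arrays, Large2, Rgs9bp and Adamts1 were lowest on replicate 2, as Atf3 was, and Adamts3 and Folr1 on replicate 3. Large2 read 7.94, 6.84 and 7.66 with overexpression, against 6.29, 6.24 and 6.01 in YAP controls. Rgs9bp read 5.60, 5.03 and 5.97 with overexpression, against 4.38, 4.18 and 4.37 in controls. In Nf2 knockouts and Nf2 controls Large2 averaged 3.60 and 3.37, and Rgs9bp 3.20 and 3.22. These levels are about as low as those of Junb there, 3.33 and 3.37, so their small differences say little. The other probe set of Adamts3 rose by only 0.23 with YAP overexpression.

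Genes around this family were followed in lists. The lists too were chosen with earlier results of these data known, so the shares called are a description. Of 14 measured genes encoding other AP-1 and related bZIP proteins, 2 rose with YAP overexpression, none fell and 12 were not called, so 14.3% of the list was called, against 6.31% of all genes. Mafk, a small Maf protein that pairs with other bZIP factors, read 6.72, 6.73 and 6.59 with overexpression, against 5.60, 5.96 and 5.68 in controls, and rose by 0.93 (SE 0.10). Its paralogue Mafg rose by 0.37 (SE 0.10). The adjusted p were 0.000245 and 0.0422 by limma. The list's median difference was 0.06.

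The list of other immediate early genes went both ways. Among its 35 measured members 6 passed the test as higher and 4 as lower with YAP overexpression, and the median difference was 0.01. The share called was 28.6%, against 6.31% of all genes. Nr4a3, an orphan nuclear receptor, rose by 1.11 (SE 0.15), with 6.54, 6.80 and 6.49 with overexpression, against 5.33, 5.29 and 5.88 in controls. Its sister gene Nr4a2, which is needed for dopamine neurons, fell by 0.63 (SE 0.11), with 7.91, 8.36 and 8.10 with overexpression, against 8.88, 8.67 and 8.72 in controls. Both groups of arrays were fully separated on the brightest probe set of either gene, in opposite directions. Over its 3 probe sets Nr4a3 differed by -0.04 to 1.11, and Nr4a2 over its 5 by -0.64 to -0.06.

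The other rising genes of that list were Csrnp1, a nuclear protein gene induced by Axin (0.82, SE 0.14), Ier3 (0.71, SE 0.19), Klf6 (0.62, SE 0.11) and Klf10 (0.34, SE 0.09), which encode Krüppel-like factors, and the small GTPase gene Rhob (0.57, SE 0.09). Btg2 and Btg1, antiproliferative genes, fell by 0.72 (SE 0.12) and 0.53 (SE 0.07), and Ier5 by 0.43 (SE 0.10). The adjusted p of these 8 genes ran from 0.000794 to 0.0444 by limma.

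Of 22 measured genes of the integrated stress and unfolded protein responses, which are known to induce Atf3, 2 rose and none fell. Asns, the asparagine synthetase gene induced by Atf4, read 9.67, 9.63 and 9.44 with overexpression, against 8.99, 8.96 and 8.68 in controls, a rise of 0.70 (SE 0.10). Psat1, of serine synthesis, rose by 0.36 (SE 0.08). The adjusted p were 0.00166 and 0.0174 by limma. The share called, 9.09%, was near that of all genes. Of the 22 differences 20 were positive, against 8199 of all 17097 genes, and the median was 0.21. An unadjusted limma p under 0.05 was reached by 9 of the 22, against 19.6% of all genes.

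Of 9 heat shock genes, the chaperone genes Hspb1 (0.88, SE 0.23) and Hspa1b (0.45, SE 0.12) rose (adjusted p = 0.0387 and 0.0416 by limma) and 7 were not called, a share of 22.2% called against 6.31% of all genes. Of 14 kinases of the ERK, JNK and p38 cascades, none rose and 2 (14.3%) fell, both JNK genes, whose products phosphorylate Jun. Mapk10, the JNK gene of neurons, fell by 0.97 (SE 0.22) and Mapk8 by 0.38 (SE 0.09), with adjusted p of 0.023 and 0.0273 by limma. Of 18 genes often described as AP-1 targets, Cd44, an adhesion receptor gene, rose by 0.73 (SE 0.19) and the intermediate filament gene Vim by 0.27 (SE 0.07), and 16 were not called, a share of 11.1% called. Their adjusted p were 0.0458 and 0.0467 by limma. None of 6 genes of SRF and its cofactors and neither of the Egr corepressor genes Nab1 and Nab2 was called by limma, and 1 and 0 of them had an unadjusted p under 0.05.

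Of these 20 calls, 9 were kept with any 1 array left out, those of Mafk, Nr4a2, Nr4a3, Klf6, Btg1, Btg2, Csrnp1, Rhob and Asns. The other 11 were lost at least once, and any of the 6 arrays of the experiment cost between 8 and 11 of them, YAP control replicate 1 all 11. Probe sets of Nr4a3, Hspb1, Mapk10 and Cd44 differed in sign. With each array's median subtracted, Mapk8 was not called (adjusted p = 0.0856). None of these 20 genes was called in Nf2 knockouts, and for Nr4a3, Csrnp1 and Nr4a2 the difference of the effects was called without the replicate block (adjusted p from 0.0381 to 0.0428 by limma). With the block it was called for Csrnp1 (adjusted p = 0.0473) and not for Nr4a3 (0.139) or Nr4a2 (0.187). With 1 array left out it was lost for Csrnp1 and Nr4a2 in 11 of 12 cases and for Nr4a3 in 8.

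**Figure D4:**
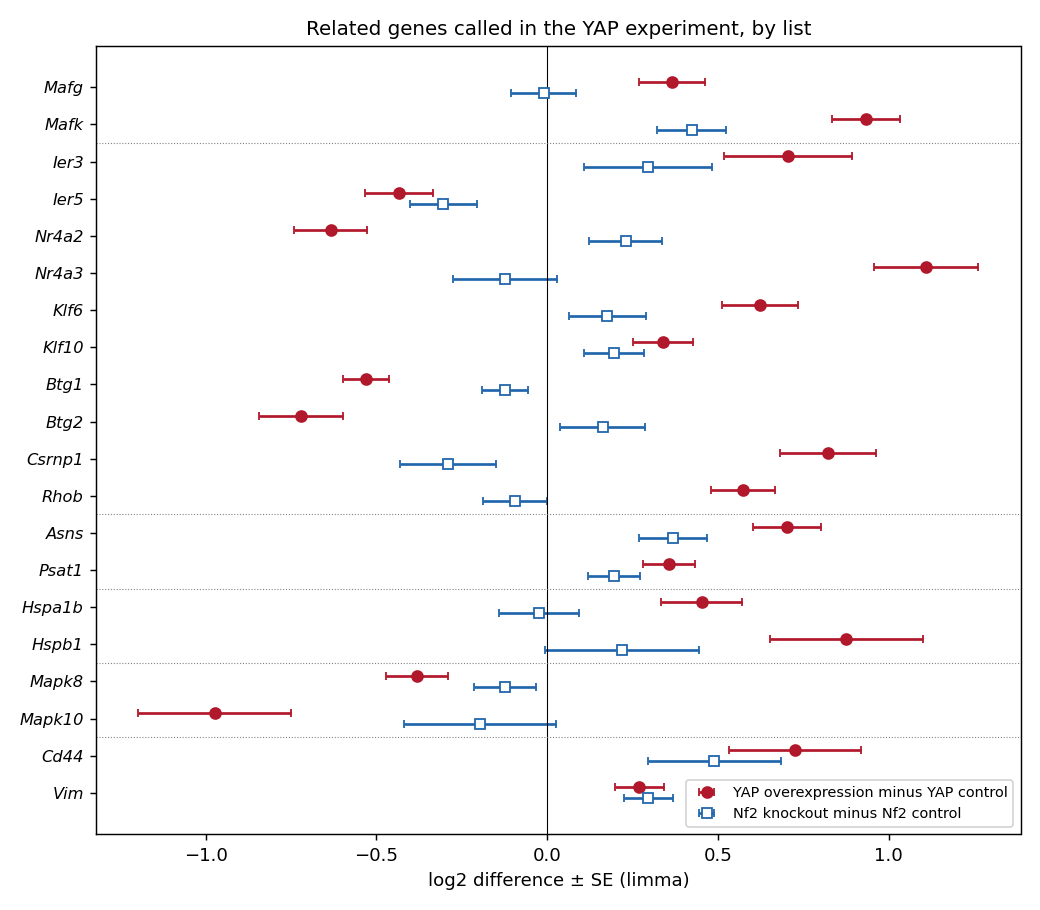
Log2 differences with SE for the 20 related genes called in the YAP experiment, filled circles for YAP overexpression minus YAP control and open squares for Nf2 knockout minus Nf2 control; dotted lines separate, from the top, other bZIP genes, other immediate early genes, stress response genes, heat shock genes, kinases and AP-1 targets. In the list of other immediate early genes Nr4a3 and Csrnp1 stand to the right and Btg2, Nr4a2, Btg1 and Ier5 to the left, while no open square belongs to a called gene.

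Genes often used to read YAP activity were set beside Atf3. Of 6 such genes, 5 rose with YAP overexpression and 3 with loss of Nf2, where 2.67% and 0.205% of all genes were called higher. The remaining gene was called in neither experiment. Ccn2, which encodes a secreted matrix protein, read 10.34, 10.17 and 9.96 with YAP overexpression, against 7.79, 8.04 and 7.13 in YAP controls. It read 7.29, 6.97 and 6.92 in Nf2 knockouts, against 5.22, 5.25 and 4.61 in Nf2 controls. Ccn2 was thus higher in every overexpression and every knockout array than in the controls, by 2.50 and 2.03 on the log2 scale (adjusted p = 7.1e-05 and 0.00165 by limma). Atf3 differed by 1.50 and 0.14, the latter on arrays where its probe set was dim. Ccn1 (1.93 and 1.02) and Amotl2 (0.73 in both) also rose in both experiments, and Ptpn14 (1.66) and Lats2 (0.97, with probe sets that differed in sign) rose with YAP overexpression, while their differences of 0.66 and 0.27 in Nf2 knockouts were not called. The call of Lats2 was lost with only the 6 arrays of the experiment (adjusted p = 0.0733 by limma), without YAP control replicate 3 (0.0638) and without YAP overexpression replicate 1 (0.0625).

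Other tissues and cell types were checked by marker genes. With YAP overexpression, where 3.64% of all genes were called lower, all 6 measured neuron markers and all 6 of the dorsal telencephalon fell. Their summed linear intensities were 5487 to 7702 with overexpression, against 9453 to 11730 in controls for neurons, and 3604 to 4190, against 6053 to 7310, for the dorsal telencephalon. Of 9 neural progenitor markers 2 rose and 2 fell, with sums of 26170 to 31380 with overexpression, against 27370 to 29310 in controls. No marker of the endothelium (6 genes), mesenchyme and pericytes (7), microglia and macrophages (7) or erythroid cells (6) was called in either experiment. Their sums overlapped between YAP groups except for erythroid genes, at 63560 to 69570 with overexpression, against 72020 to 75410 in controls. In the Nf2 experiment no marker was called, but several sums were separated. They were higher for microglia, at 363.4 to 399.5 in Nf2 knockouts, against 286.5 to 319.6 in Nf2 controls, and for neural progenitors, at 14500 to 15460, against 13700 to 13860. They were lower for erythroid cells, at 16070 to 17760 in knockouts, against 19340 to 19580 in controls, and for neurons, at 5105 to 5503, against 5615 to 6051. All 7 microglial differences were positive, and all 6 of neurons and all 6 of the endothelium were negative. Of the 9 neural progenitor differences 6 were positive and 3 negative, with a median of 0.07. The progenitor sum weighs bright genes most, and Vim averaged 12.90 in Nf2 knockouts and 12.60 in Nf2 controls on the log2 scale. Whether that sum is separated without Vim was not analysed. The endothelial median was -0.33, with sums that overlapped, and 3 of its 6 genes had an unadjusted limma p under 0.05. A single choroid plexus marker of 6 rose with YAP overexpression, Folr1, and a single surface ectoderm marker of 7, Krt19, which was named after its values were seen. The part of these shifts in the changes of Atf3, Fosl2 and Jun was not tested.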

How the data were processed

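Per the labels, Trizol-extracted RNA, 100 ng per sample, was labelled as biotinylated cRNA for Affymetrix arrays. The authors deposited log2 intensities per probe set, to 2 decimals. Per the submitters' processing notes, RMA, Affymetrix Expression Console 1.1 and Partek 6.5 were used, with no roles given. Array medians were 5.03 to 5.1 in the YAP experiment and 4.3 to 4.42 in the Nf2 experiment, so levels were not compared across them. The lowest correlation between arrays of a group, across genes, was 0.994.

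Of 28898 single-gene probe sets, 28689 were matched to current symbols by Entrez ID. The brightest probe set over all 12 arrays stood for a gene. Limma 3.58.1 (R 4.3.3) was fitted to 4 group means, with 8 residual and 4.096 prior degrees of freedom. All p-values are two-sided. Adjusted p are by Benjamini-Hochberg over all genes, or over all 45037 probe sets in the fit of probe sets. An exact test of 3 against 3 arrays cannot go below 0.1. The code was tested on simulated data. Residuals of same-numbered arrays correlated by 0.271, 0.212 and 0.207 in the Nf2 experiment, and those of other numbers by -0.228 to -0.000108. In the YAP experiment same-numbered arrays gave 0.0971, -0.195 and -0.204, while overexpression replicate 3 with control replicate 2 gave 0.304. The labels state no pairing, so a pairing of the Nf2 arrays by number rests on these residuals only and is not established. The members and lists were chosen with earlier results of these data known. Genes were named by rule: the 8 members, list genes called in either experiment, and the 5 nearest to Atf3. Alternatives were the fit's samples, a replicate block, array weights, scaling, normalization, probe set choice, a filter, a variance trend and leaving out arrays. The number of arrays limits the precision.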

Additional observations from a re-analysis of the deposited data

Results flagged for a closer look

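The effect of YAP overexpression less the effect of Nf2 loss passed limma's test for Atf3, at 1.36 on the log2 scale, Nr4a3 (1.23), Csrnp1 (1.11), Nr4a2 (-0.86) and Ccn1 (0.92), which rose in both experiments. With the replicate block only Csrnp1 of these 5 was called (adjusted p = 0.0473), and the others had an adjusted p of 0.0761 to 0.187. Each of the 5 calls was lost with 1 array left out in 6 to 11 of 12 cases, with an adjusted p of up to 0.126. The same difference was 1.30 for Adamts1 and 1.47 for Folr1, which were chosen for their likeness to Atf3, so that a larger effect of YAP overexpression follows from the choice and their values are a description. Manipulation, tissue and age differ together between the experiments and cannot be told apart.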

How the results depend on the processing

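The calls of Atf3, Fosl2 and Jun in the YAP experiment were kept under the replicate block, array weights, median subtraction, quantile normalization, the mean of probe sets, leaving out _x_at and _s_at probe sets, the low-value filter (which removed Junb) and the intensity trend. With only the 6 arrays of the experiment 1 member remained called, Atf3, and 361 genes were called in place of 1078 for YAP overexpression and 25 in place of 43 for Nf2 loss. Leaving out 1 array gave 2 to 3 called members for YAP overexpression and 0 for Nf2 loss, with 529 to 1241 genes called for YAP overexpression, 20 to 32 for Nf2 loss and 21 to 161 for the difference of effects. For that difference 1 member was called, 0 to 2 with 1 array left out. The replicate block gave 689 genes in the YAP experiment, 21 in the Nf2 experiment, 21 for the difference and 0 members there, and changed no other call of a member. It ended the YAP calls of Mafg, Mapk10, Cd44 and Vim (adjusted p from 0.0549 to 0.102). Array weights gave 67 genes in the Nf2 experiment, and the intensity trend 119 for the difference. Higher genes were 42.3% of the calls in the YAP experiment, 52.8% with array medians subtracted. Signs turned only for values near 0. For Fos in the YAP experiment the difference was 0.03 with medians subtracted and 0.0022 with quantile normalization, and it ran from -0.052 to 0.058 with 1 array left out. With 1 array left out, Ier2 in the YAP experiment ran from -0.01 to 0.26, and in the Nf2 experiment Jund from -0.12 to 0.0083, Fos from -0.058 to 0.077, Junb from -0.065 to 0.01, Mafg from -0.09 to 0.06, Hspa1b from -0.10 to 0.05, Folr1 from -0.14 to 0.18 and Rgs9bp from -0.10 to 0.03. For the difference of effects Fos ran from -0.082 to 0.055. Rgs9bp was 0.015 with array weights and Hspa1b 0.057 without _x_at and _s_at probe sets, both in the Nf2 experiment. The cause was not tested. Dim probe sets limit what can be said of Fos and Junb, of the second Jund probe set, and of Atf3 in the Nf2 experiment. The first Fosl2 probe set was dim in YAP controls. The block and the left-out arrays for the difference of effects of genes other than the members were chosen after seeing the data.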
